A study of Homo sapiens with 9 samples.

Results

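The miRNAs described here carry a number of 4 digits that begins with 1 or 2 in their names, a block given to human miRNAs found mostly by early deep sequencing. They were chosen by name and by abundance: reads of all loci of a name were summed, and a name was kept when it held at least 30 raw counts over the 9 libraries. Of the 2652 miRNA names in the count table, 200 fell in this number range, 119 of these had at least 1 count, and 50 met the limit. Over all numbers, 611 names met it. The limit selected on abundance summed over every library, so the summed counts are a description. Just outside it lay miR-1234-3p and miR-2355-5p with 29 counts each, and just inside it miR-1292-3p and miR-2276-3p with 33 each.

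The study asked which miRNAs of ES-2 cells associate with the 3'UTR of the PD-L1 (CD274) mRNA, which encodes an immune checkpoint ligand. ES-2 is an established ovarian cancer cell line, and all samples were untreated and of wild-type genotype. In miTRAP, a bait RNA carrying MS2 stem-loops is held on amylose resin by a fusion of the MS2 coat protein and maltose-binding protein, and small RNA that stays with the bait in cell lysate is sequenced. The 3 groups were the lysate input, a trap with MS2 control RNA and a trap with the PD-L1 3'UTR, with 3 replicate libraries each. The methods give a larger amount of the PD-L1 bait than of the control bait, so bait sequence and bait amount cannot be told apart. The methods state at least biological triplicates for all of the study's experiments, while the labels do not tie each library to a culture of its own, so p-values measure the spread between these libraries. Small RNA libraries hold no mRNA markers by which the cell line label could be checked.

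A canonical miRNA is cut from a hairpin by Drosha and then by Dicer, and 1 strand is loaded onto an Argonaute protein, where bases 2 to 8, the seed, pair with target mRNAs. Many miRNAs numbered in this range depart from that route. Mirtrons are hairpins that make up a whole short intron, are released by splicing rather than by Drosha, and are known for low abundance. Other names in the range lie within, or resemble, small nucleolar RNAs, small nuclear RNAs or tRNAs, and reads assigned to them can include fragments of those RNAs.

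RefSeq (GRCh38.p14) held the mature sequence of 47 of the 50 miRNAs. The miRNAs miR-1976, miR-1296-5p and miR-1304-3p are given by name only. The following sequences are shown 5′ to 3′, with the seed in capitals, for the miRNAs described in most detail. The first set holds the 5 mirtron arms that met the limit, of which the miR-1226 arms could be tested.
miR-1226-5p: gUGAGGGCaugcaggccuggaugggg
miR-1226-3p: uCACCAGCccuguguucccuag
miR-1229-5p: gUGGGUAGgguuugggggagagcg
miR-1229-3p: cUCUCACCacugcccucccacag
miR-1237-3p: uCCUUCUGcuccgucccccag

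The miR-1226 arms lie at chr3:47849555-47849580 and chr3:47849608-47849629 on the plus strand. The miR-1229 arms lie at chr5:179798323-179798346 and chr5:179798278-179798300 on the minus strand, and miR-1237-3p at chr11:64368683-64368703 on the plus strand. In the GENCODE annotation the MIR1226 hairpin of 75 bases was an entire intron of DHX30, with 0 bases left on either side. The same held for MIR1229, whose 69 bases were an intron of MGAT4B, and for MIR1237, whose 102 bases were an intron of RPS6KA4. Of 36 hairpins that could be placed in the annotation, 28 lay in an intron, 4 in an exon and 4 in neither. Among the 28, MIR1294, MIR1304, MIR1306, MIR1307 and MIR1908 also overlapped an exon of another annotated transcript.

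The second set holds miRNAs that stood highest or lowest in a trap. miR-1248 (chr3:186786675-186786701, plus strand) lies within the small nucleolar RNA SNORA81, and at 27 bases it was the longest of the 47 sequences.
miR-1248: aCCUUCUUguauaagcacugugcuaaa
miR-2355-3p: aUUGUCCUugcuguuuggagau
miR-1908-5p: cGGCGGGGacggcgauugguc
miR-1301-3p: uUGCAGCUgccugggagugacuuc
miR-1292-5p: uGGGAACGgguuccggcagacgcug
miR-1307-3p: aCUCGGCGuggcgucggucgug
miR-1468-5p: cUCCGUUUgccuguuucgcug
miR-2682-5p: cAGGCAGUgacuguucagacguc
miR-1306-5p: cCACCUCCccugcaaacgucca
miR-1306-3p: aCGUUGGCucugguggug

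The third set groups members by shared seed. miR-1260a and miR-1260b share 1 seed and resemble the end of a tRNA, and miR-1268a and miR-1268b share another. Such near-identical pairs can share reads, and their separate counts are uncertain.
miR-1260a: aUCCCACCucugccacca
miR-1260b: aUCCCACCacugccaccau
miR-1268a: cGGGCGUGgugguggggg
miR-1268b: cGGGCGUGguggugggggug

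The seed of miR-1271-5p is also that of miR-96-5p, the seed of miR-2682-5p that of miR-449c-5p, and the seed of miR-1908-5p that of miR-663a and miR-10396b-5p.

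Total counts ran from 3794799 to 5983577 in the input libraries, between 1156261 and 2236535 for the control RNA and between 672824 and 1237652 for the 3'UTR, so the input values carry the least counting error. The 50 miRNAs took a small share of each library, 0.159% ± 0.0084 of counts in the input, 0.518% ± 0.082 in the MS2 control and 0.295% ± 0.0068 in the PD-L1 3'UTR group (SD, n = 3 each). The 3 groups did not overlap in this share. Most of the difference was miR-1307-3p, and without it the shares were 0.0836% ± 0.0093, 0.168% ± 0.0195 and 0.134% ± 0.011. Levels are given as CPM, the counts of a miRNA scaled to a common library size, after scaling by TMM. TMM sets 1 factor for each library and assumes that most miRNAs do not change between libraries. A library gives shares, so more trapping of these miRNAs and less of others cannot be told apart.

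**Figure D1:**
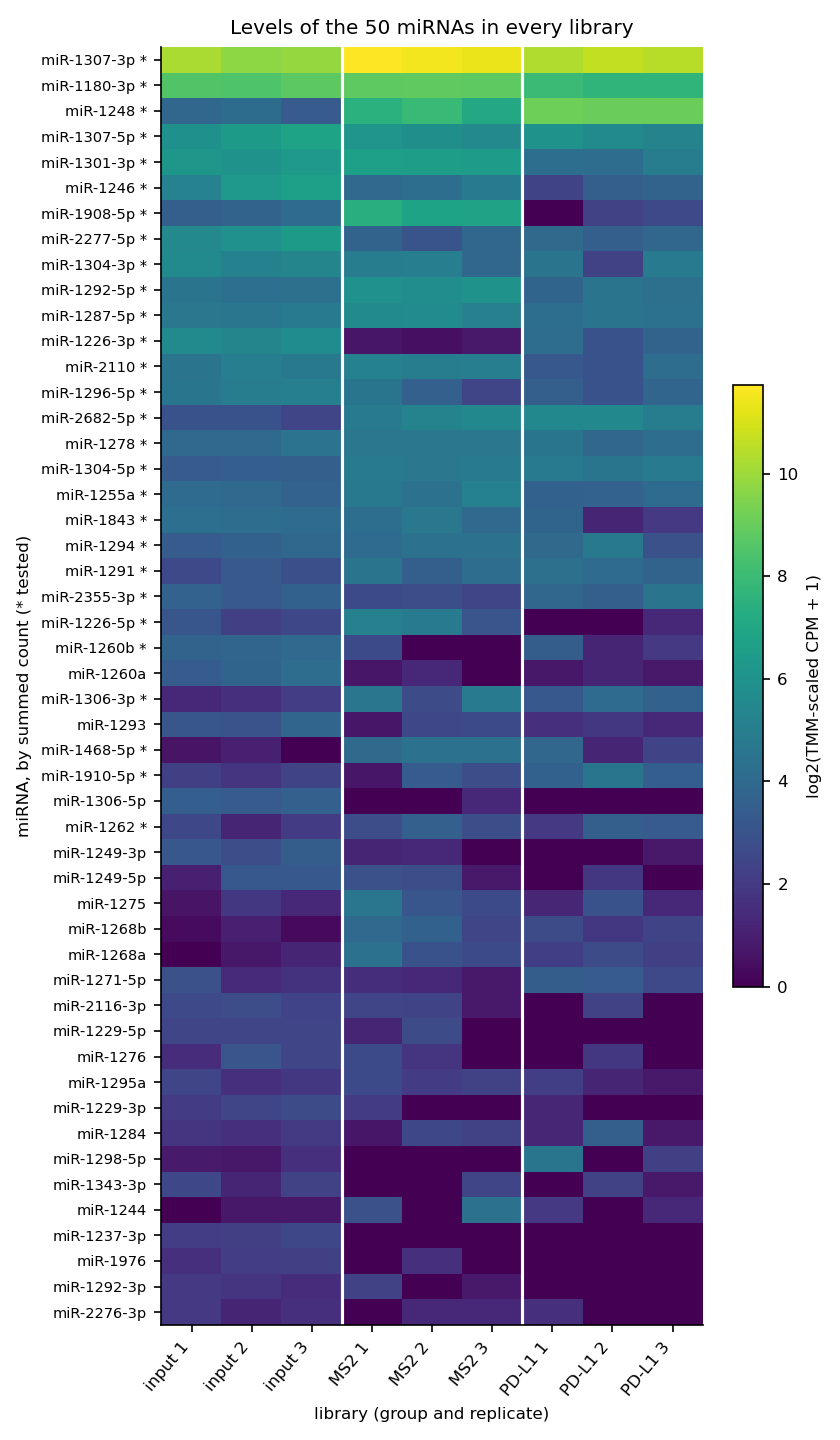
Heat map of log2(TMM-scaled CPM + 1) for the 50 miRNAs (rows, by summed count, * for those tested) in the 9 libraries (columns). miR-1307-3p led in every library, miR-1248 rose to between 519 and 567 CPM in the PD-L1 3'UTR trap, and miR-1306-5p and miR-1237-3p were at 0 in every PD-L1 3'UTR library.

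Abundance was uneven among the members. In the input, miR-1307-3p, from a hairpin in ATP5MK, had a mean of 991 CPM and miR-1180-3p, from an intron of B9D1, a mean of 389 CPM. They were followed by miR-1307-5p with 84.0, miR-1301-3p with 71.3 and miR-1246 with 69.8 CPM. Low counts kept 22 of the 50 miRNAs out of the main test, which required about 8.05 CPM in at least as many libraries as a group holds, and 28 were tested among 408 miRNAs in all. Of these 28, miR-1226-5p was past that level only in libraries of 1 group, the MS2 control. Others would have missed the test without 1 of the groups. That group was the MS2 control for miR-1468-5p and miR-1908-5p, and the input for miR-1226-3p and miR-1260b. It was the PD-L1 3'UTR for miR-1910-5p, miR-2355-3p and miR-1306-3p, while miR-1262 needed both traps. The filter favoured a high level in the group needed, so tests against it, and counts of calls that hold them, carry this limit. Over all 50, 14 miRNAs had at least 30 counts in the input and fewer than 30 in both traps together, 4 had at least 30 in the MS2 control and fewer elsewhere together, and 1, miR-1298-5p, had them with the PD-L1 3'UTR. The deeper input libraries bear on these numbers. The choice of members favoured a high level of these miRNAs in the group that admitted them, so their differences from that group are given below as counts, with no test. The same holds for miR-1226-5p against the MS2 control. Of the members that met the limit of 30 counts through 1 group, the 1 tested was miR-1260b, through the input.

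Setting the PD-L1 3'UTR trap against the MS2 control trap asks which miRNAs came with the 3'UTR rather than with the resin and the loops. Of the 28 tested miRNAs, 3 were higher with the 3'UTR, the snoRNA-embedded miR-1248, the mirtron arm miR-1226-3p and miR-2355-3p. Lower with the 3'UTR were 10. Of these, miR-1226-5p entered the test through the MS2 control libraries, where it was high, and the other 9 were led by miR-1908-5p, miR-1301-3p and miR-1292-5p. Calls rest on edgeR's quasi-likelihood test with an adjusted p under 0.05 over all 408 miRNAs. Over these 408, 31.4% were higher and 28.7% lower, against 11.1% and 33.3% of the 27 members without miR-1226-5p. These 27 still hold miRNAs that needed 1 of the compared groups to be tested, such as miR-1908-5p and miR-2355-3p. The 408 were not cleared of such miRNAs, so the shares are not like for like. The median log2 fold change was -0.40 over these 27 and 0.02 over all 408. In each of the 13 calls the libraries of the groups did not overlap and the change was at least 2-fold.

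miR-1248 was present at 13.4, 16.9 and 9.46 CPM in the input libraries, at 176, 239.5 and 135 CPM with the control RNA and at 567, 519 and 548 CPM with the 3'UTR. The groups did not overlap, and the level was lowest in the input and highest with the 3'UTR. It was 2.96-fold higher with the 3'UTR than in the MS2 control (log2 fold change 1.57, SE 0.25, edgeR adjusted p = 0.000283). It was the 1 tested member called higher with the 3'UTR than in both other groups, a pattern seen in 18.9% of all 408 miRNAs. Reads of the host snoRNA were not measured in this table of mature miRNAs, so their part in this result was not tested.

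miR-2355-3p, from an intron of KLF7, had 11.8, 8.77 and 11.5 CPM in the input, 5.17, 5.95 and 4.54 CPM in the MS2 trap and 13.5, 10.7 and 21.8 CPM with the 3'UTR. The 3'UTR libraries lay above the MS2 control libraries but overlapped the input. Its log2 fold change between the traps was 1.55 (SE 0.41, edgeR adjusted p = 0.00685). The 3'UTR libraries were needed for it to pass the filter on low counts, so this call is not taken as a test.

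miR-1908-5p, from a hairpin in FADS1, had 10.5, 12.5 and 16.2 CPM in the input, 160, 110.2 and 106 CPM in the MS2 trap and 0, 4.03 and 5.08 CPM with the 3'UTR. It was the tested member that fell most between the traps, with a log2 fold change of -5.42 (SE 0.62, edgeR adjusted p = 2.25e-05). The MS2 control libraries were needed for it to pass the filter on low counts, so this call is not taken as a test. It was also lower with the 3'UTR than in the input (log2 fold change -2.17). Its seed partners had few counts and were not tested: miR-663a had 8, 3 and 15 counts in the input, 6, 4 and 4 in the MS2 control and 3, 0 and 5 with the 3'UTR, and miR-10396b-5p had 29, 18 and 31, then 5, 8 and 1, then 0, 0 and 1. These counts are not corrected for depth. In mean CPM, miR-663a had 2.17 in the input and 2.83 in the MS2 control, and miR-10396b-5p had 6.89 and 2.39. Neither partner showed a rise of the size seen for miR-1908-5p in the MS2 control.

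miR-1301-3p, from an intron of DNMT3A, had 73.4, 62.0 and 78.4 CPM in the input and 98.3, 95.2 and 84.7 CPM in the MS2 control, against 17.7, 17.4 and 29.0 CPM with the 3'UTR. The 3'UTR libraries lay below all others, with a log2 fold change of -2.10 against the MS2 control (SE 0.26, edgeR adjusted p = 4.25e-05). miR-1292-5p, whose hairpin lies in an exon of NOP56, had 60.8, 53.5 and 64.3 CPM in the MS2 control against 12.7, 21.5 and 18.9 CPM with the 3'UTR. It fell by 1.77 on the log2 scale, and its input libraries, at 22.1, 18.5 and 19.4 CPM, overlapped those of the 3'UTR.

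The most abundant member, miR-1307-3p, had 1191, 848 and 934 CPM in the input, 3377, 2923 and 2624 CPM in the MS2 trap and 1286, 1599 and 1420.0 CPM with the 3'UTR. The MS2 control stood highest, and the 3'UTR group was 2.07-fold lower (log2 fold change -1.05, SE 0.17, edgeR adjusted p = 0.000278). miR-1180-3p had 444, 461 and 447 CPM in the MS2 trap and 252, 201 and 205 CPM with the 3'UTR, a log2 fold change of -1.04. The other falls were -1.67 for miR-1843, -1.50 for miR-2110, -1.15 for miR-1287-5p and -1.01 for miR-1255a. Of the 13 calls, 11 held in every alternative in which the miRNA was tested. Some fits were missing: 78 of 84 were present with the compared groups alone, and 72 with a mean of at least 10 CPM. miR-1226-3p was past the limit in 0 MS2 control and 2 3'UTR libraries, too few for a test with those groups alone. miR-1226-5p, miR-1908-5p and miR-2355-3p are among these 11, but the filter favoured their changes, so their calls are no support. miR-1255a lost its call by DESeq2 (adjusted p = 0.0551), without a filter on low counts (0.147), and without MS2 control replicate 1 (0.05) or 3 (0.0914) or 3'UTR replicate 1 (0.0968) or 2 (0.0642). miR-1843 lost its call when the compared groups were fitted alone (0.0587) and without MS2 control replicate 2 (0.0663) or 3'UTR replicate 2 (0.0582) or 3 (0.0904).

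**Figure D2:**
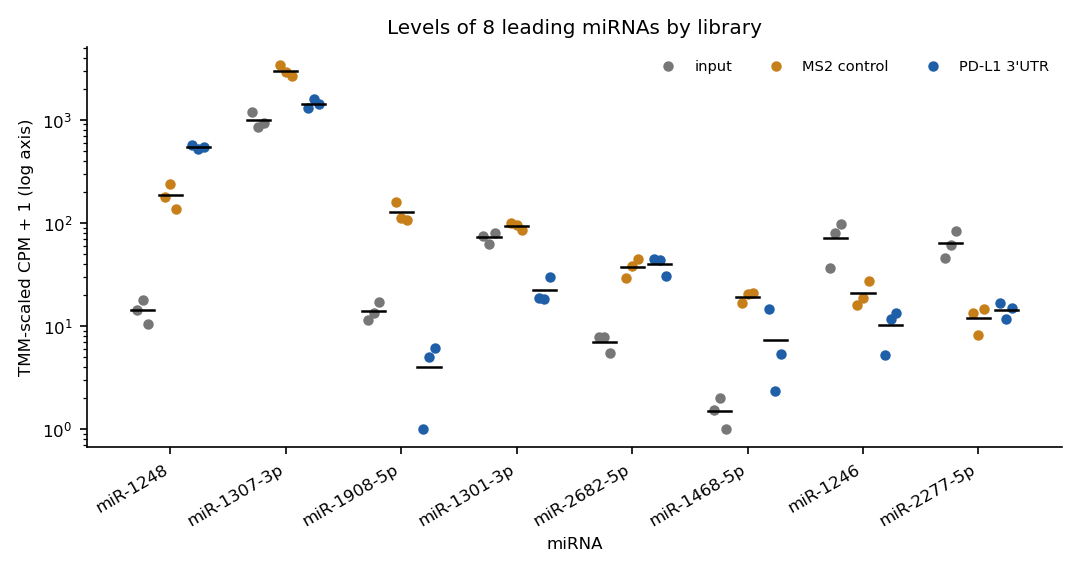
TMM-scaled CPM + 1 (log axis) of 8 leading miRNAs in each library (points, coloured by group), with the group mean as a black bar. miR-1248 stood highest with the PD-L1 3'UTR, miR-1307-3p and miR-1908-5p in the MS2 control, and miR-1246 and miR-2277-5p in the input.

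Without a filter on low counts all 50 miRNAs could be tested among 1500 names. Members were chosen for at least 30 counts and the 1500 hold every name with at least 1 count, so the calls over these sets are not set side by side. miR-1271-5p, which no single group admitted, passed as higher with the 3'UTR than in the MS2 control in this fit. It had 25, 5 and 10 counts in the input, 3, 4 and 1 in the MS2 control and 14, 7 and 7 with the 3'UTR (log2 fold change 2.42, edgeR adjusted p = 0.0303). Its far more abundant seed partner miR-96-5p had a mean of 590 ± 174 CPM in the MS2 trap and 798 ± 114 CPM with the 3'UTR, a log2 fold change of 0.44 that did not pass the test (edgeR adjusted p = 0.118).

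miR-1298-5p, of the HTR2C intron cluster on the X chromosome, had 3, 2 and 9 counts in the input, 0 in every MS2 control library and 32, 0 and 5 counts with the 3'UTR. Its 3'UTR level was at least 18.8-fold higher than 3 counts over the MS2 control libraries would give, but 32 of the 37 counts came from replicate 1 and replicate 2 had none. The other names of that cluster were near absent: of 7 in the table, 4 had a count, and the largest below the limit held 5. Of 5 names from the 14q32 cluster, an imprinted miRNA cluster, 2 had a count and none met the limit.

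Against the input, the PD-L1 3'UTR trap held 8 of the 28 tested miRNAs at a higher level and 11 at a lower one. The rises were led by miR-1248, miR-1468-5p, miR-2682-5p, miR-1306-3p and miR-1910-5p, and the falls by miR-1226-5p, miR-1246, miR-2277-5p, miR-1908-5p and miR-1226-3p. Over all 408 miRNAs 34.1% were higher and 32.4% lower, against 29.6% and 40.7% of the 27 members without miR-1260b, which was not called, and the median log2 fold change was -0.20 over these 27 and 0.04 over all. This split moved with the scaling: by library totals, 10 of the 28 were higher and 5 lower, and the median of all 408 shifted by 0.57. No share of calls over all 408 is given for that scaling, so its counts are no result about the members. The 27 members still hold miRNAs that needed 1 of the compared groups to be tested, such as miR-1226-3p, miR-1306-3p and miR-1910-5p. The 408 were not cleared of such miRNAs, so these shares are not like for like.

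The MS2 control trap against the input describes what the resin and the control RNA retained. Of the 28 miRNAs, 12 were higher in the MS2 control and 6 lower, with backgrounds of 32.8% and 37.0% over all 408 miRNAs, and the median log2 fold change was 0.67 over the 28 and 0.02 over all. Without miR-1226-5p and miR-1260b, each admitted through 1 of these groups, 11 of 26 were higher and 5 lower, or 42.3% and 19.2%. These 26 still hold miR-1468-5p and miR-1908-5p, which needed the MS2 control to be tested, and miR-1226-3p, which needed the input. The 408 were not cleared of such miRNAs, so the shares are not like for like. By library totals, which shifted the median of all miRNAs by 0.63, 18 were higher and 3 lower, again without a share of calls over all 408. Both comparisons use the same input libraries, and the comparison between the traps shares libraries with each.

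miR-1468-5p was almost absent from the input, with 2, 3 and 0 counts, and had 24, 49 and 26 counts in the MS2 control and 19, 1 and 6 with the 3'UTR. Its log2 fold change was 5.14 (SE 0.84) in the MS2 control and 3.75 (SE 0.90) with the 3'UTR, each against the input, with edgeR adjusted p-values of 0.000314 and 0.004. It needed the MS2 control libraries to pass the filter on low counts, so its call for that group is not taken as a test. Between the traps the change of -1.40 did not pass the test.

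miR-2682-5p had 6.84, 6.74 and 4.51 CPM in the input, 28.4, 37.3 and 43.1 CPM in the MS2 trap and 43.9, 42.9 and 29.7 CPM with the 3'UTR. Both traps stood above the input and overlapped each other. The log2 fold changes against the input were 2.59 and 2.68 (edgeR adjusted p = 3.73e-05 and 3.92e-05), and the difference between the traps was 0.09 (SE 0.29). Its seed partner miR-449c-5p had 17, 15 and 17 counts in the input, 9, 0 and 0 in the MS2 control and 9, 4 and 18 with the 3'UTR, and was not tested.

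miR-1910-5p had 3.68, 2.36 and 4.28 CPM in the input, 0.646, 9.52 and 6.05 CPM in the MS2 trap and 11.3, 22.8 and 10.2 CPM with the 3'UTR. Its rise over the input with the 3'UTR was 2.02 on the log2 scale (edgeR adjusted p = 0.0217). It needed the 3'UTR libraries to pass the filter on low counts, so this call is not taken as a test. The call did not hold without input replicate 1, 2 or 3 (adjusted p = 0.0791, 0.0991 and 0.066) and without PD-L1 3'UTR replicate 2 (0.108).

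miR-2277-5p, whose hairpin lies in an exon of FAM172A, went the other way, with 44.2, 60 and 82.2 CPM in the input against 12.3, 7.14 and 13.6 CPM in the MS2 trap and 15.6, 10.7 and 13.8 CPM with the 3'UTR. All trap libraries lay below all input libraries, with log2 fold changes of -2.52 and -2.19 (edgeR adjusted p = 9.61e-05 and 0.000298). miR-1296-5p, from an intron of JMJD1C, had 22.9, 30.0 and 32 CPM in the input, 22.6, 11.1 and 4.54 CPM in the MS2 trap and 10.6, 6.71 and 13.1 CPM with the 3'UTR. Its fall in the MS2 control, a log2 fold change of -1.14 (edgeR adjusted p = 0.0498), was lost by library totals (adjusted p = 0.375), by DESeq2 (0.0656) and without any 1 of 5 libraries, namely input replicate 1 (0.0521), 2 (0.135) or 3 (0.0984) and MS2 control replicate 2 (0.138) or 3 (0.0675).

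Sorted by the group in which a miRNA was called higher than in both others, 6 of the 28 led in the MS2 control, 4 in the input and 1 with the 3'UTR. The shares over all 408 miRNAs were 19.1%, 19.1% and 18.9%. The 6 led by the MS2 control were miR-1226-5p, miR-1255a, miR-1287-5p, miR-1292-5p, miR-1307-3p and miR-1908-5p. Of these, miR-1226-5p was admitted to the test through that group, and miR-1908-5p needed it. The rise of miR-1226-5p over the input was also lost without input replicate 2 (edgeR adjusted p = 0.0604) or 3 (0.0667) or MS2 control replicate 1 (0.0629). The rise of miR-1255a over the input, a log2 fold change of 0.89 (edgeR adjusted p = 0.024), was lost without a filter on low counts (adjusted p = 0.391), with the replicate number as a block (0.0502) and without any 1 of 6 libraries. These were input replicates 1, 2 and 3 (0.0743, 0.073 and 0.218), MS2 control replicates 1 and 3 (0.0816 and 0.245) and PD-L1 3'UTR replicate 2 (0.0598). The rise of miR-1287-5p, 0.80 on the log2 scale (edgeR adjusted p = 0.013), was lost without a filter (adjusted p = 0.407) and without input replicate 1 (0.068), 2 (0.0589) or 3 (0.0979) or MS2 control replicate 1 (0.0757) or 2 (0.0537). The 4 led by the input were miR-1226-3p, miR-1246, miR-1296-5p and miR-2277-5p, of which miR-1226-3p needed that group to be tested. The fall of miR-1296-5p with the 3'UTR against the input was lost by library totals (edgeR adjusted p = 0.157) and without input replicate 2 (0.0541) or 3'UTR replicate 2 (0.0599). miR-1262, miR-1278, miR-1294 and miR-1304-3p passed the test in none of the 3 comparisons.

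**Figure D3:**
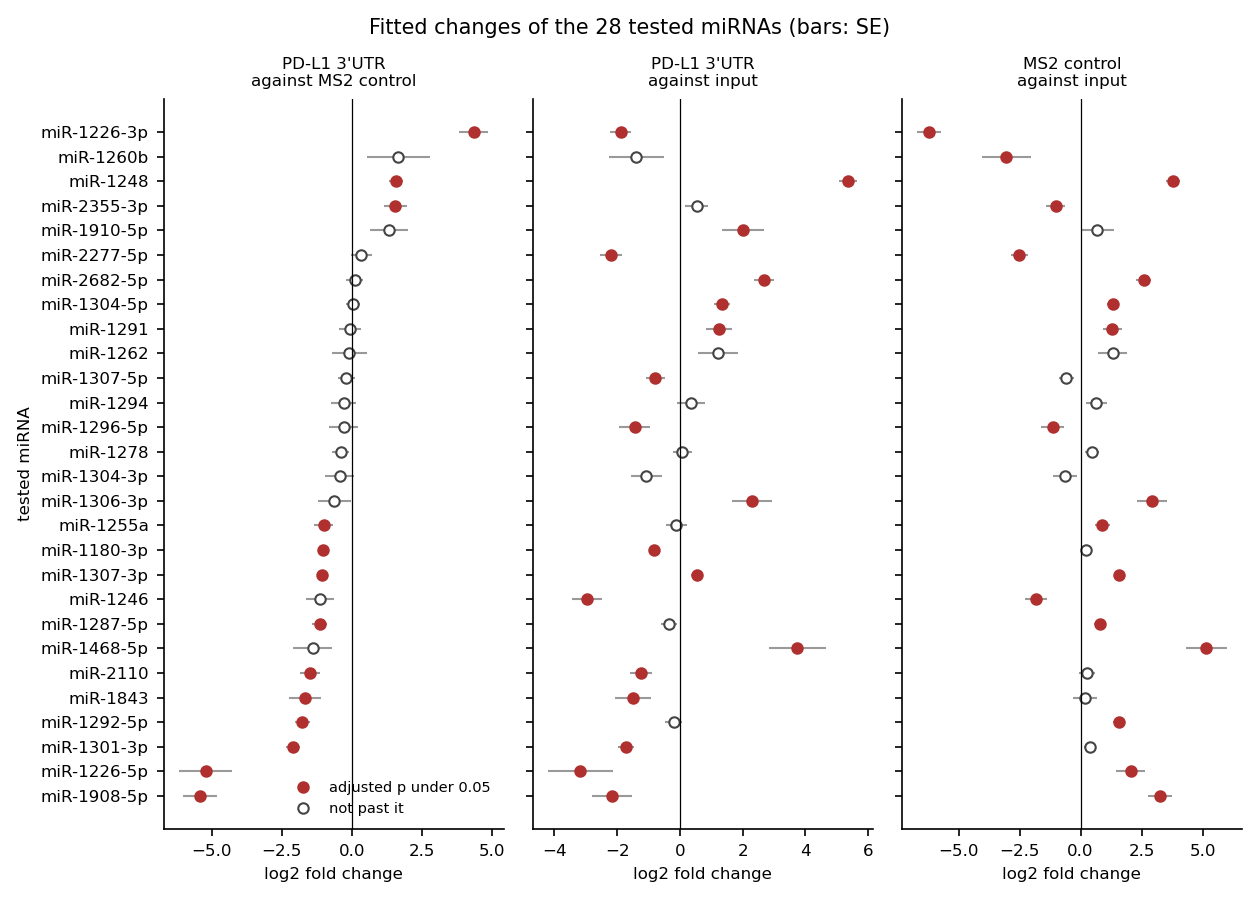
Fitted log2 fold changes (x axes) of the 28 tested miRNAs in the 3 comparisons, with SE bars, filled where the edgeR adjusted p was under 0.05. Between the traps, 3 miRNAs lie to the right and 10 to the left as filled points, from miR-1226-3p at 4.34 to miR-1908-5p at -5.42.

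Together the 5 mirtron arms held 731 counts in the deeper input libraries, 154 in the MS2 control and 50 with the 3'UTR, without correction for depth. miR-1226-3p had 180, 115 and 229 counts in the input libraries, 1 in each MS2 control library and 24, 5 and 17 with the 3'UTR. The groups were apart from each other, with the MS2 control lowest. By these counts it was 84.0-fold lower with the control RNA than in the input (95% counting interval 28.6 to 408.7) and 23.4-fold higher with the 3'UTR than in the MS2 control (7.51 to 117.5). The edgeR adjusted p-values were 1.82e-06 and 3.88e-05. It needed the input libraries to pass the filter on low counts, so its call against the input is not taken as a test.

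Its partner strand miR-1226-5p showed the reverse between the traps. It had 30, 11 and 21 counts in the input, 51, 69 and 10 in the MS2 control and 0, 0 and 2 with the 3'UTR. It was 42.6-fold lower with the 3'UTR than in the MS2 control (counting interval 11.6 to 355.8) and 9.78-fold lower than in the input (2.60 to 82.6). Since the MS2 control libraries alone carried it past the filter on low counts, its call against that group is not taken as a test. The fall against the input (edgeR adjusted p = 0.0195) was lost by library totals (adjusted p = 0.0502) and without PD-L1 3'UTR replicate 1 (0.0575). The MS2 control libraries overlapped those of the input.

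The other mirtron arms were too low for the main test. They met the limit of 30 counts through the input, which favoured falls from it, so their values are a description. miR-1237-3p had 13, 11 and 21 counts in the input and 0 in all trap libraries, which made it at least 7.22-fold lower with the control RNA and at least 4.73-fold lower with the 3'UTR, against 3 counts over the group. miR-1229-5p had 17, 13 and 20 counts in the input, 2, 14 and 0 in the MS2 control and 0 with the 3'UTR. miR-1229-3p had 12, 13 and 25 counts in the input, 5, 0 and 0 in the MS2 control and 2, 0 and 0 with the 3'UTR. The 3'UTR libraries lay below the input for both arms.

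Mirtron names below the limit held few reads. Of 21 listed names in the table, 17 had a count, and 12 of these stayed under 30. In these 12, 11 names had a count in the input, 3 in the MS2 control and 1 with the 3'UTR, with 54, 17 and 1 counts in all. The input libraries were the deepest, and at such counts a difference in depth alone cannot be told from a difference in level. miR-1976, whose hairpin lies 2 bases from the end of a 344-base intron of RPS6KA1, is not on the mirtron list. It had 8, 10 and 16 counts in the input, 0, 5 and 0 in the MS2 control and 0 with the 3'UTR.

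All 5 names listed as lying in or resembling another structured RNA met the limit, and they did not move together. miR-1248 rose in both traps. miR-1246, which resembles U2 small nuclear RNA, had 35.8, 77.9 and 95.7 CPM in the input, 14.9, 17.8 and 26.5 CPM in the MS2 trap and 4.25, 10.7 and 12.3 CPM with the 3'UTR. It fell by 1.83 and by 2.96 on the log2 scale against the input (edgeR adjusted p = 0.00366 and 0.000418), while the change of -1.13 between the traps did not pass the test (edgeR adjusted p = 0.0735).

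The tRNA-like miR-1260a had 37, 38 and 77 counts in the input, 1, 4 and 0 in the MS2 control and 1 in each 3'UTR library, a 16.0-fold fall with the 3'UTR (counting interval 5.37 to 78.4). miR-1260b had 46, 39 and 66 counts in the input, 8, 0 and 0 in the MS2 control and 14, 1 and 4 with the 3'UTR. All trap libraries of both miRNAs lay below their input libraries in CPM, and both met the limit through the input. miR-1291, which lies within SNORA34, had 5.00, 8.77 and 6.31 CPM in the input, 22, 10.7 and 17.4 CPM in the MS2 trap and 19.1, 16.1 and 12.3 CPM with the 3'UTR. Its rises over the input, 1.31 and 1.25 on the log2 scale (edgeR adjusted p = 0.0123 and 0.0191), were each lost without a filter on low counts (adjusted p = 0.165 and 0.206) and without any 1 of 4 libraries. For the MS2 control these were input replicates 1 and 3 and MS2 control replicates 1 and 3 (0.0817, 0.101, 0.0816 and 0.052). For the 3'UTR they were input replicates 1 and 3 and PD-L1 3'UTR replicates 1 and 2 (0.114, 0.143, 0.0982 and 0.0678).

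Both strands of 7 hairpins met the limit, which allowed the share of the 5p strand to be followed. The strand that dominated the MS2 control was not always that of the input. For miR-1226 the 5p share was 10.5% ± 3.3 in the input, 95.8% ± 4.3 in the MS2 control and 3.51% ± 6.1 with the 3'UTR (SD, n = 3 each). For miR-1306, from a hairpin in DGCR8, which encodes a partner of Drosha, it was 81.9% ± 5.1, 1.75% ± 3.0 and 0%. With 3 libraries a group, an exact permutation test (two-sided) of a share cannot go below p = 0.1. Both hairpins gave that value for the MS2 control against the input, which is no support for a difference. miR-1306-5p also met the limit through the input, which favoured a high 5p share there, so the shares of miR-1306 are a description.

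The counts behind miR-1306 were 39, 28 and 49 for the 5p strand in the input, then 0, 0 and 2 in the MS2 control and 0 with the 3'UTR. The 3p strand had 6, 6 and 15 counts in the input, 36, 14 and 36 in the MS2 control and 12, 12 and 16 with the 3'UTR. The strands thus moved in opposite directions in both traps. miR-1306-3p rose by 2.92 and 2.29 on the log2 scale (edgeR adjusted p = 0.00168 and 0.00921). It needed the 3'UTR libraries to pass the filter on low counts, so its call for the 3'UTR is not taken as a test. miR-1306-5p was 27.9-fold lower in the MS2 control (counting interval 7.55 to 233.1) and at least 12.2-fold lower with the 3'UTR, against 3 counts over the group. It was admitted through the input, and these values are a description.

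The 5p share of miR-1304, from a hairpin in TAF1D, was 20.8% ± 3.0 in the input, 52.0% ± 12.8 in the MS2 control and 63.6% ± 18.8 with the 3'UTR. miR-1304-5p had 9.73, 10.5 and 10.6 CPM in the input against 26.5, 23.8 and 27.2 CPM and 27.6, 22.8 and 28.3 CPM in the traps. It rose by 1.33 and 1.36 on the log2 scale (edgeR adjusted p = 0.000804 and 0.000885), while miR-1304-3p, with log2 fold changes of -0.64 and -1.07, did not pass the test. Without a filter on low counts both rises of the 5p strand missed the threshold (adjusted p = 0.0813 and 0.0736).

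miR-1292 was read mainly from its 5p strand everywhere, with shares of 89.5% ± 1.7, 97.6% ± 3.2 and 100%, and miR-1307 mainly from its 3p strand, with 5p shares of 8.06% ± 3.0, 1.84% ± 0.16 and 3.36% ± 1.2. miR-1307-5p had 58.4, 83.9 and 109.7 CPM in the input, 68.5, 55.5 and 44.6 CPM in the MS2 trap and 63.7, 47.0 and 36.3 CPM with the 3'UTR. Its call against the input, a log2 fold change of -0.78 (edgeR adjusted p = 0.0453), came with overlapping libraries and was lost by library totals (adjusted p = 0.583), by DESeq2 size factors (0.0514), and without input replicate 2 (0.0548) or 3 (0.0773) or 3'UTR replicate 2 (0.0596) or 3 (0.105). The rise of miR-1307-3p over the input with the 3'UTR, 0.53 on the log2 scale (edgeR adjusted p = 0.0152), was lost without a filter (adjusted p = 0.402), with the compared groups alone (0.0761), and without input replicate 2 (0.184) or 3 (0.19), MS2 control replicate 3 (0.142) or 3'UTR replicate 2 (0.135) or 3 (0.0672).

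miR-1249-5p, from an intron of KIAA0930, had 4, 25 and 37 counts in the input, 10, 15 and 1 in the MS2 control and 0, 2 and 0 with the 3'UTR. miR-1249-3p had 31, 17 and 44, then 2, 4 and 0, then 0, 0 and 1, and was 29.0-fold lower with the 3'UTR than in the input (counting interval 5.08 to 1159). Both strands met the limit through the input, which favoured falls from it, so these values are a description. The 5p share was 38.9% ± 24.8 in the input and 87.4% ± 11.1 in the MS2 control. The miR-1229 strands were near balance in the input, at 51.0% ± 7.1, and too few in the traps to give a share for every library.

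**Figure D4:**
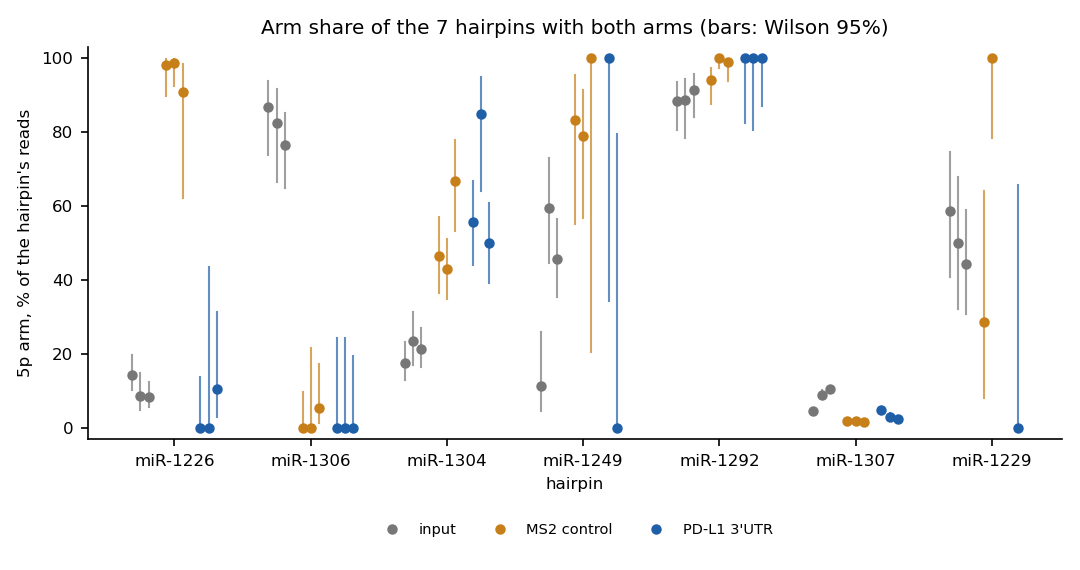
Share of the 5p strand in the reads of each of 7 hairpins (y axis, %), per library with Wilson 95% intervals that cover counting error only, coloured by group. The share of miR-1226 lies between 8.4% and 14.3% in the input and between 90.9% and 98.6% in the MS2 control, and that of miR-1306 falls from between 76.6% and 86.7% in the input to at most 5.26% in the traps.

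The 2 tested members with the lowest log2 fold changes between the traps were rich in guanine. miR-1226-5p is 53.8% guanine and its partner strand 18.2%, and miR-1908-5p is 52.4% guanine. Over the 26 tested members with a sequence, the guanine share and the log2 fold change between the traps had a Pearson r of -0.72 and a Spearman rho of -0.64. The r was -0.77 without the 2 members farthest from the median share. These were miR-1260b at 5.26% and miR-1278 at 13.6% guanine, both low in guanine, so miR-1226-5p and miR-1908-5p stayed in. Over all 371 tested miRNAs with a sequence the values were -0.34 and -0.37. These correlations run across miRNAs within the same 6 libraries, which are not independent replicates, and are a description. Tested members were richer in guanine than the other tested miRNAs, with medians of 35.7% and 26.1%, and richer in G and C together, with 58.1% and 47.8%. Without miR-1226-5p the Pearson r of the 25 members left was -0.68 and the Spearman rho -0.595. These 25 still hold miR-1908-5p, which needed the MS2 control to be tested.

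The members too low for the test with at least 50% guanine did not share 1 pattern. Of these 5, 3 were read mostly in the MS2 control, the group that also carried them past the limit. miR-1268a, at 72.2% guanine, had 0, 2 and 6 counts in the input, 30, 17 and 7 in the MS2 control and 5, 4 and 5 with the 3'UTR. miR-1268b had 1, 3 and 1, then 23, 29 and 6, then 8, 2 and 6. miR-1275 (gUGGGGGAgaggcuguc), at 58.8% guanine, had 2, 8 and 7, then 36, 20 and 7, then 2, 5 and 2. The other 2, miR-1229-5p at 62.5% and miR-1249-5p at 50% guanine, met the limit through the input and had lower mean levels in the MS2 control, 2.28 against 4.45 CPM and 4.39 against 5.94 CPM. miR-1293, next in guanine with 45.5%, had means of 9.35 CPM in the input and 3.57 CPM in the MS2 control.

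**Figure D5:**
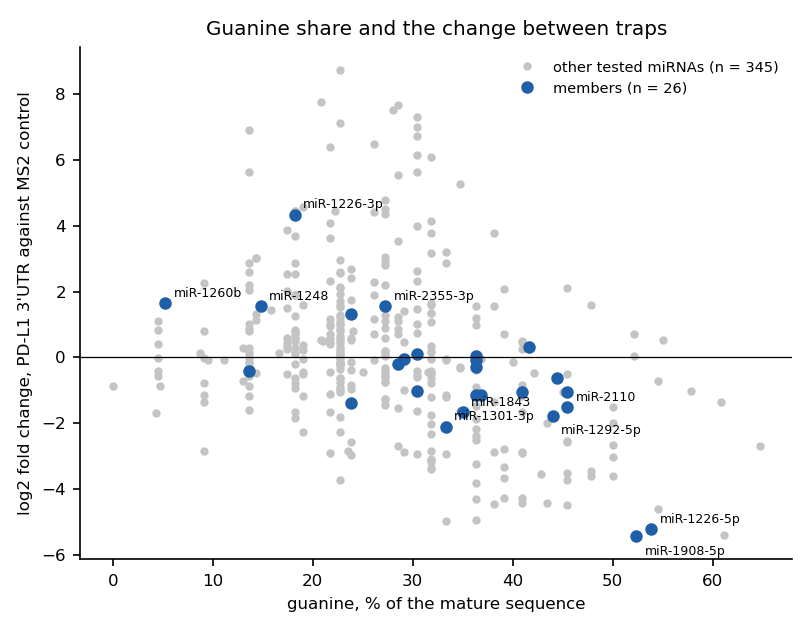
Guanine share of the mature sequence (x axis, %) against the log2 fold change of the PD-L1 3'UTR trap over the MS2 control trap (y axis) for 26 tested members (blue) and 345 other tested miRNAs (grey). miR-1908-5p and miR-1226-5p lie at the lower right, at 52.4% and 53.8% guanine.

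The 3'UTR of CD274 was searched for seed matches in the 2692 bases that follow the stop codon in a GENCODE transcript. The exact bait sequence was not used here. A match was the complement of miRNA bases 2 to 8, the complement of bases 2 to 7 followed by A, or both together (8mer). Such a match was found for 5 of the 26 tested members with a sequence, or 19.2%, and for 104 of the 371 tested miRNAs, or 28.0%. The members with a match were miR-1255a, miR-1287-5p, miR-1292-5p, miR-1304-5p and miR-2682-5p. Their median log2 fold change between the traps was -1.01, against -0.40 for members without a match, while over all tested miRNAs the medians were 0.41 with and -0.06 without. This order among the members turned with the definition. When the form that needs the A was left out, 3 members had a match, with a median of 0.03 against -0.63 without, and when bases 2 to 7 alone were accepted, 9 had one, with -0.09 against -0.63. Over all tested miRNAs the medians were then 0.62 with and -0.07 without, and 0.45 and -0.31.

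The 5 sites below show each kind of match, in the mRNA sense, with the match in capitals and positions counted from the first base after the stop codon. They belong to miR-1255a (307 to 313), miR-1304-5p (385 to 391) and miR-2682-5p (1558 to 1564), which are complements of bases 2 to 8, to miR-1292-5p (1732 to 1738), where an A follows the complement of bases 2 to 7, and to miR-2116-3p (1487 to 1494), the last being the 1 8mer among all 47 sequences.
miR-1255a site: atcatccattgCTCATCCtaggaa
miR-1304-5p site: ctccactcaatGCCTCAAtttgtt
miR-2682-5p site: aagcaactgctACTGCCTttcatt
miR-1292-5p site: aatgaatttgaaGTTCCCAgggct
miR-2116-3p site: caaaagatcccATGGGAGAtggtt

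miR-2116-3p, from an intron of MYO1E, had 19, 17 and 18 counts in the input, 7, 11 and 1 in the MS2 control and 0, 3 and 0 with the 3'UTR, too few for the main test. The 3 members called higher with the 3'UTR than in the MS2 control, miR-1248, miR-1226-3p and miR-2355-3p, had no match of these kinds in this sequence, while miR-1226-3p had one to bases 2 to 7 alone. A match is a run of letters and no evidence of a site in use, and its absence says nothing about pairing of other kinds.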

How the data were processed

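Small RNA of 9 libraries was measured, 3 each of input, MS2 control and PD-L1 3'UTR trap, grouped by sample title. The deposited values are raw counts per mature miRNA locus. The authors' processing notes name cutadapt 1.18 for trimming, Bowtie2 2.2.6 for alignment (hg38 named) and featureCounts 1.6.3 for counting on miRBase. No column of other samples was present.

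The members, gene lists and naming rule were chosen with earlier results of these data known. Named are, per comparison, up to 5 largest rises and falls among calls whose libraries do not overlap, the 5 most abundant in the input, members of the lists (mirtrons, other structured RNA, 14q32, HTR2C), members with both arms present, and names next to the limit. miR-1268a, miR-1268b, miR-1271-5p, miR-1275, miR-1293, miR-1976, miR-2116-3p and the lesser calls were named after their values were seen.

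Loci of a name were summed (miR-1244 has 4). edgeR 4.0.16 in R 4.3.3 (filterByExpr by group, TMM, glmQLFit and glmQLFTest, 3 group means, two-sided) tested 408 miRNAs, with Benjamini-Hochberg adjustment over all of them and a common biological coefficient of variation of 31.1%. TMM factors were 0.742 to 0.782 in the input and 1.109 to 1.247 in the traps. The script was tested on simulated data. All pairs of replicates differed beyond sampling noise by chi-square. For counts of 3 or fewer in a group, ratios carry exact 95% binomial intervals, and against 0 counts a floor of 3 counts over the group was used. Shares carry Wilson intervals. Intervals and floors cover counting error only, since reads carry no molecular identifiers. Alternatives were DESeq2 1.42.0, other scalings and filters, single loci, the compared groups alone, a replicate block and leaving out each library. Sequences and positions are RefSeq's (GRCh38.p14), and hairpin places come from GENCODE on GRCh37.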

Additional observations from a re-analysis of the deposited data

How the results depend on the processing

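No called change of a tested member reversed under the alternatives tried. Between the traps 11 of 13 calls held in all alternatives in which the miRNA was tested. Among these were miR-1226-5p, miR-1908-5p and miR-2355-3p, whose changes the filter favoured. For the PD-L1 3'UTR against the input 9 of 19 held, and for the MS2 control against the input 10 of 18. Without a filter on low counts, where 50 rather than 28 members were tested, 5 were higher with the 3'UTR than in the MS2 control, 24 lower with the 3'UTR than in the input and 10 lower with the control RNA than in the input. The limit on counts admitted 14 of the 50 through the input and 1, miR-1298-5p, through the PD-L1 3'UTR. That choice favours such falls and the rise of miR-1298-5p. No share of calls over all names is given for this fit, so these counts are no result about the members. By library totals, which shift all miRNAs against the input by 0.57 to 0.63 on the log2 scale, the falls against the input dropped to 5 with the 3'UTR and 3 in the MS2 control. Leaving out each library in turn gave 3 to 5 rises between the traps (5 without MS2 control replicate 1 or 2, where 37 and 30 members were tested), 8 to 17 falls of the 3'UTR against the input (17 without MS2 control replicate 3, with 38 tested) and 3 to 9 falls of the MS2 trap against the input (3 without input replicate 2). The counts by library totals and of the leave-outs stand without a share over all tested miRNAs. The tested sets also differ between leave-outs, so these counts show only how calls moved. The number of tested members with a seed match was 3 without the form that needs the A and 9 with bases 2 to 7 alone. The replicate numbers did not pair the libraries: correlations of same-numbered libraries ran from -0.179 to 0.129. With the replicate number as a block, 3 members were higher and 11 lower between the traps, 8 and 10 with the 3'UTR against the input, and 11 and 4 in the MS2 control against the input. For the counts with a block, too, no share over all miRNAs is given. Depth limits the low members: 3 counts are worth 4.03 CPM in the shallowest PD-L1 3'UTR library and 0.676 CPM in the deepest input library.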

Other observations

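Names below the limit of 30 counts hold a few reads that belong in no comparison. miR-1197, of the 14q32 cluster, had 7 counts in all, 3 and 4 in PD-L1 3'UTR replicates 1 and 3. miR-1298-3p, the partner strand of miR-1298-5p, had 3 counts in MS2 control replicate 3 and 2 in PD-L1 3'UTR replicate 1. miR-1234-3p, the mirtron name nearest to the limit, had 2, 5 and 7 counts in the input, 5, 10 and 0 in the MS2 control and 0 with the 3'UTR. miR-2355-5p, the partner strand of miR-2355-3p, had 5, 3 and 5 counts in the input, 4, 8 and 0 in the MS2 control and 2, 0 and 2 with the 3'UTR. miR-1244, which has 4 loci, met the limit with 0, 2 and 3 counts in the input, 10, 0 and 26 in the MS2 control and 4, 0 and 2 with the 3'UTR, so that 36 of its 47 counts came from MS2 control replicates 1 and 3.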
